A study of Mus musculus with 6 samples.

Results

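The mmu-miR-192, mmu-miR-194 and mmu-miR-215 family was followed in small extracellular vesicles (sEVs), the nanosized membrane vesicles that cells release, collected from the medium of cultured mouse islets. Its members were the entries of the deposited table whose name is mmu-miR-192, mmu-miR-194 or mmu-miR-215 with any hairpin or arm suffix. This gave 4 of the 718 entries, namely mmu-miR-192-5p, mmu-miR-215-5p, mmu-miR-194-5p and mmu-miR-194-2-3p. The rule uses names and presence in the table, where each listed entry has reads in 2 or more libraries. The family itself was chosen from the measured difference between the diets, so its diet difference is a description, and the adjusted p-values below give its place in the whole table and no independent support.

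All libraries came from islets of wild-type C57/B6J mice, the strain as the labels spell it. Mice on a normal chow diet (NCD) gave 3 libraries of nid-sEVs, and mice on a high-fat diet (HFD) gave 3 libraries of aid-sEVs. By the study's general description, mice entered the diets at 8 weeks of age and HFD feeding lasted 9 weeks, while the labels of these libraries state neither. The islets were kept in serum-free medium for 48 hours and 5 ng of sEV RNA went into each library. The study states in general that its experiments had biological replicates, but neither the labels nor the sequencing methods say which animals or cultures, or how many, stand behind each library, so the p-values measure the spread between these libraries, which may be partly technical. Whole islets were cultured, so any islet cell type, or tissue carried over with the islets, could have released the vesicles. By the study's general methods, sEVs were pelleted by ultracentrifugation. The study says that this may also enrich complexes of RNA and protein that hold miRNAs. It addressed this for miR-151 by column purification and by blocking vesicle release. The part of such complexes in the family's reads was not tested.

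MicroRNAs are short RNAs that lower the output of messenger RNAs whose untranslated regions pair with the seed, bases 2 to 8 of the mature strand. Each hairpin precursor can yield a 5p and a 3p strand, and usually 1 of them is kept. The miR-192 and miR-194 genes lie side by side, as do the genes of miR-215 and the other miR-194 copy. The family is known for high levels in liver, kidney and gut epithelium, where hepatocyte nuclear factor 1 and p53 can switch it on.

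The 4 listed mature sequences are shown because their similarity decides which reads can be told apart. They are RefSeq sequences placed on GRCm38.p6, with the seed in capitals.
miR-192-5p: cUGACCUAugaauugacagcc
miR-215-5p: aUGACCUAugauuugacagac
miR-194-5p: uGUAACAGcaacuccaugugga
miR-194-2-3p: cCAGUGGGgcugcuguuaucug

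miR-192-5p and miR-215-5p had the same seed and were the only 2 mature mouse miRNAs of the RefSeq table with it. They differed at 3 of 21 positions, counted from 1 at the 5′ end, written C1A, A12U and C20A with the miR-192-5p base first. How the counting treated reads that match both is not given in the sources used here, so the split between these 2 entries is uncertain. miR-194-5p has another seed and is the same sequence from both of its hairpins, so its reads cannot be assigned to a locus. The 3p strands do differ between the hairpins. miR-194-2-3p and miR-194-1-3p differed at 4 of 22 positions (G8A, U19C, C20U and G22C, the miR-194-2-3p base first). The unlisted miR-194-1-3p is shown because its seed differs in the last base.
miR-194-1-3p: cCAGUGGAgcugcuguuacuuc

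The hairpins fall into a pair of clusters. On the plus strand of chromosome 19, Mir194-2 (chr19:6264643-6264728) and Mir192 (chr19:6264844-6264932) are separated by 115 bases and overlap no annotated gene other than themselves. The nearest coding gene is Atg2a, 2308 bases from Mir194-2. On the plus strand of chromosome 1, Mir194-1 (chr1:185313319-185313385) and Mir215 (chr1:185313581-185313692) are separated by 195 bases. Both lie in introns of Iars2, a mitochondrial isoleucyl-tRNA synthetase gene on the other strand. The antisense RNA gene 2010103J01Rik also spans both, with Mir194-1 in its intron and Mir215 overlapping an exon. The 4 hairpins encode 7 distinct mature strands in RefSeq, of which 4 were listed. Both listed arms of the miR-194-2 hairpin and miR-192-5p map to the chromosome 19 cluster, while miR-215-5p is specific to the chromosome 1 cluster.

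**Figure D1:**
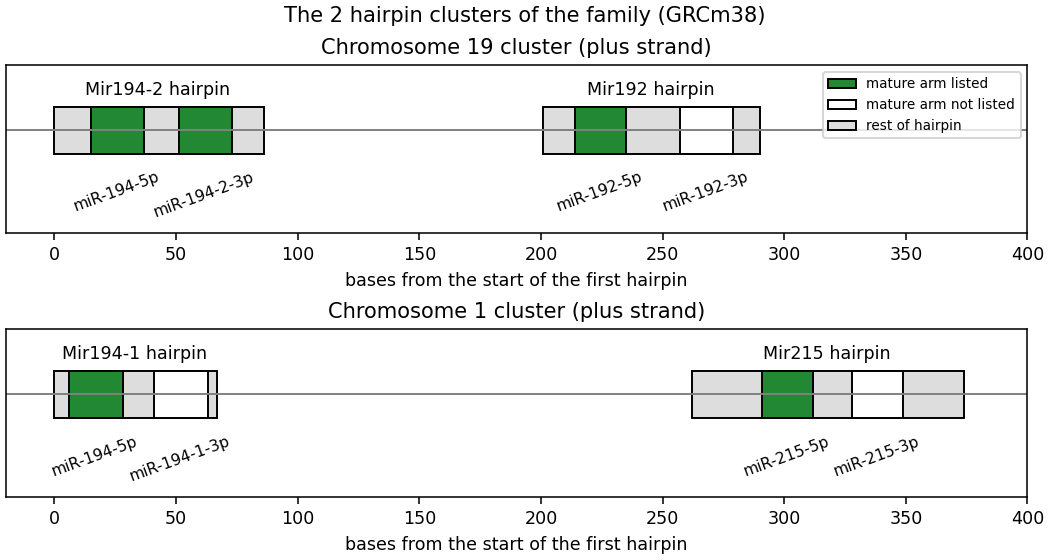
Layout of both hairpin clusters, in bases from the start of the first hairpin, with mature arms that the table lists in green and arms that it does not list in white. Of the 7 distinct mature arms, 4 are listed, and miR-194-5p appears in both clusters.

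Levels are given as RPM, the reads of an entry scaled to a fixed total over all entries of its library. RPM is a share, so a library dominated by other entries lowers every remaining value. A small RNA read covers a whole miRNA, so no division by length was made, but miRNAs ligate with unequal efficiency and levels of different miRNAs are therefore approximate. The nid-sEV libraries held 50534 to 129152 reads and the aid-sEV libraries 122266 to 519315. The smallest level that each depth can show was taken as 3 reads, which is 23.2 to 59.4 RPM in nid-sEVs and 5.78 to 24.5 RPM in aid-sEVs. Intervals and floors cover counting error only, and reads made by PCR are not independent molecules.

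miR-192-5p was the abundant member in both groups and was higher in aid-sEVs. Its level was 1208, 1964 and 416 RPM in nid-sEV 1, 2 and 3 (156, 129 and 21 reads). It was 4982, 6038 and 5864 RPM in aid-sEV 1, 2 and 3 (2587, 2127 and 717 reads). The groups did not overlap, and the lowest aid-sEV library stood 2.54 times above the highest nid-sEV library. The 95% Wilson intervals of these 2 libraries were 4794 to 5177 RPM and 1654 to 2333 RPM.

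The mean level of miR-192-5p was 1196 ± 774 RPM in nid-sEVs and 5628 ± 567 RPM in aid-sEVs (SD, n = 3 each), a ratio of 4.71. In limma's test over all 718 entries, its log2 fold change on the log2(RPM + 1) scale was 2.49 (SE 0.61) with a Benjamini-Hochberg adjusted p of 0.039. Of all entries, 15.6% were called up in aid-sEVs by the same rule, which asked for a log2 fold change above 1 and an adjusted p below 0.05. Every aid-sEV library was above every nid-sEV library in 24.2% of all entries, and in 20.5% of the 219 entries detected in all 6 libraries. Taken alone, the exact permutation test on miR-192-5p gave p = 0.1 (two-sided), the smallest that 3 libraries against 3 allow.

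The call for miR-192-5p, which asks for an adjusted p below 0.05, changed with the libraries kept and the depth used. With limma it was kept without nid-sEV 3, at a log2 fold change of 1.86 and an adjusted p of 0.035. It was lost without any one of the other 5 libraries, at adjusted p from 0.051 to 0.14. It was also lost on reads thinned to the smallest library (2.55, limma adjusted p = 0.060) and with reads of miR-192-5p and miR-215-5p summed (2.39, limma adjusted p = 0.054). In all of these the direction was the same. The unadjusted limma p was 0.0060 with all libraries, 0.0026 without nid-sEV 2 and 0.0053 on thinned reads. In these 2 settings the adjustment over the other entries lost the call. Without nid-sEV 1 or any one aid-sEV library the unadjusted limma p was larger, at 0.013 to 0.029. In bulk vesicle preparations, a larger share of vesicles from one cell type and more of a miRNA per vesicle cannot be told apart.

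Depth differed between the groups, and values at similar depth were therefore set side by side. nid-sEV 1 and aid-sEV 3 held 129152 and 122266 reads. Between these libraries miR-192-5p rose from 156 to 717 reads, a ratio of RPM of 4.86. miR-194-5p had 9 and 7 reads, miR-215-5p 16 and 5, and miR-194-2-3p 0 and 5. This is 1 library of each group, so it has no replicate check, and the members other than miR-192-5p rested on few reads. The pair was alike in depth but not in make-up. Entries outside miRBase naming held 33.4% of nid-sEV 1, 9.22% of aid-sEV 3 and at most 9.45% of any library but nid-sEV 1. As RPM is a share, this lowers the nid-sEV 1 level and raises the ratio of 4.86. The ratio was not computed on named entries alone. For all libraries, the fit on named entries alone gave miR-192-5p a log2 fold change of 2.32 (limma adjusted p = 0.048).

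The abundance order showed the same step. Ranked by mean RPM among all entries, miR-192-5p stood at place 73 in nid-sEVs and 31 in aid-sEVs. Its neighbours in nid-sEVs were miR-126a-3p (1217 ± 672 RPM), an endothelial miRNA, and let-7d-5p (1183 ± 547 RPM). In aid-sEVs they were miR-741-3p (6166 ± 1398 RPM) and miR-186-5p (5440 ± 630 RPM). None of these neighbours differed from miR-192-5p by more than 1 SD of its own libraries. Library by library, miR-192-5p held places 74, 62 and 109 in nid-sEVs and 32, 28 and 31 in aid-sEVs.

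miR-215-5p, which shares the seed of miR-192-5p, differed from it in level and in pattern. Its level was 124, 274 and 0 RPM in nid-sEV 1, 2 and 3 (16, 18 and 0 reads) and 40.4, 17.0 and 40.9 RPM in aid-sEV 1, 2 and 3 (21, 6 and 5 reads). The first 2 nid-sEV libraries were above every aid-sEV library. nid-sEV 3 had no read, which at its depth allows a level of up to 59.4 RPM, above all 3 aid-sEV values. The means were 133 ± 137 RPM in nid-sEVs and 32.8 ± 13.6 RPM in aid-sEVs (SD, n = 3 each), so the nid-sEV mean was 4.05 times the aid-sEV mean. With the library at 0 in the fit, the log2 fold change was -0.045 (SE 2.15, limma adjusted p = 0.99). Without nid-sEV 3 it was -2.56 (limma adjusted p = 0.081). No difference of miR-215-5p passed the test, and 1.81% of all entries were called lower in aid-sEVs.

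miR-194-5p, the cluster partner of miR-192-5p, was low in both groups. Its level was 69.7, 183 and 0 RPM in nid-sEV 1, 2 and 3 (9, 12 and 0 reads) and 142, 122 and 57.3 RPM in aid-sEV 1, 2 and 3 (74, 43 and 7 reads). The groups overlapped, with nid-sEV 2 the highest library. The means were 84.1 ± 92.2 RPM and 107 ± 44.5 RPM (SD, n = 3 each), a ratio of 1.27. The fit gave a log2 fold change of 2.10 (SE 1.97, limma adjusted p = 0.51), and without nid-sEV 3, the library at 0, it was -0.17 (limma adjusted p = 0.89). By mean RPM miR-194-5p stood at place 235 in nid-sEVs and 214 in aid-sEVs.

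miR-194-2-3p, the 3p strand of the hairpin next to Mir192, was seen in aid-sEVs alone, at 21.2, 8.52 and 40.9 RPM (11, 3 and 5 reads). All 3 nid-sEV libraries had 0 reads. At the aid-sEV mean of 23.5 ± 16.3 RPM (SD, n = 3), nid-sEV 1, 2 and 3 would have held 3.04, 1.55 and 1.19 reads, so a level like that of aid-sEVs was not detectable in them with 3 reads as the floor, except at its edge in nid-sEV 1. The limma fit called the entry (log2 fold change 4.37, SE 0.88, adjusted p = 0.025), but that fold depends on the added 1 and is no bound. On reads thinned to the smallest library the log2 fold change was 1.46 (limma adjusted p = 0.53). Among all entries, 155 had no read in any nid-sEV library and 75 of those were called up.

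**Figure D2:**
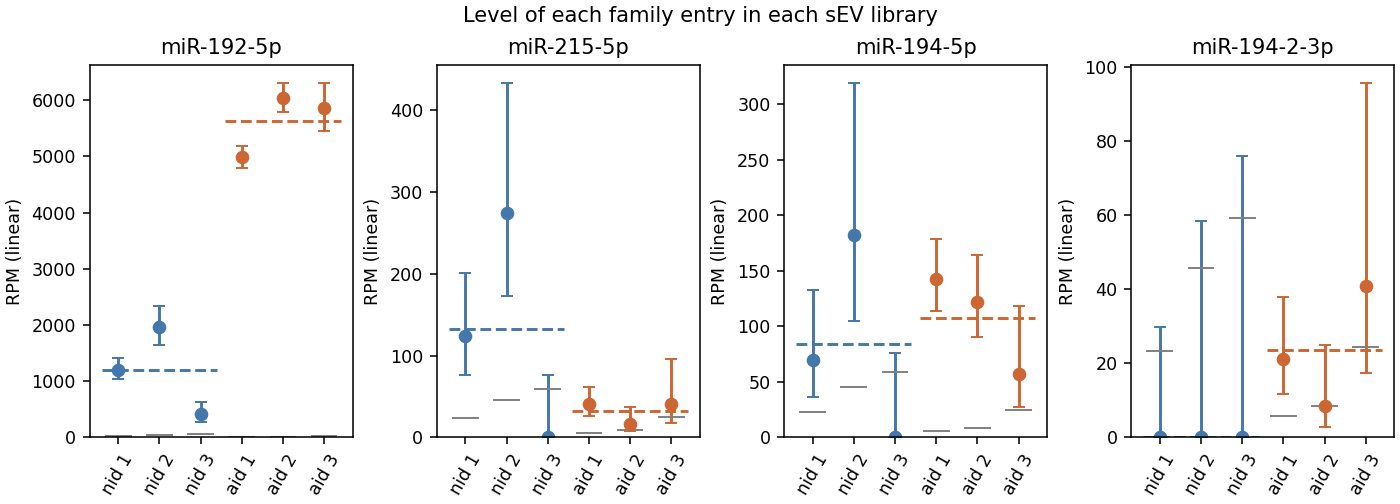
RPM of the 4 family entries in each library on linear axes that start at 0, each with its own scale. Points carry 95% Wilson intervals, dashed lines are group means, and grey ticks mark 3 reads. The miR-192-5p values of aid-sEVs (4982 to 6038 RPM) lie above all nid-sEV values (416 to 1964 RPM), while miR-215-5p and miR-194-5p lie near the floor in several libraries.

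miR-192-5p made up most of the family. It took 86.2, 81.1 and 100% of the family's reads in nid-sEV 1, 2 and 3 and 96.1, 97.6 and 97.7% in aid-sEV 1, 2 and 3. The family as a whole took 0.140, 0.242 and 0.0416% of the reads of the nid-sEV libraries and 0.519, 0.619 and 0.600% of those of the aid-sEV libraries. The means were 0.141 ± 0.10% and 0.579 ± 0.0533% (SD, n = 3 each), a ratio of 4.10 that largely restates miR-192-5p. Without nid-sEV 2 the nid-sEV mean was 0.0909%. The order of mean levels in nid-sEVs was miR-192-5p, miR-215-5p, miR-194-5p and miR-194-2-3p, and the middle pair differed by less than their SD. In aid-sEVs it was miR-192-5p, miR-194-5p, miR-215-5p and miR-194-2-3p, and the last 2 differed by less than their SD.

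Within a library, the ratio of cluster partners does not depend on the library total. miR-192-5p had 17.3 and 10.8 reads for each read of miR-194-5p in nid-sEV 1 and 2, and 35, 49.5 and 102 in aid-sEV 1, 2 and 3. In nid-sEV 3, with 21 reads of miR-192-5p and none of miR-194-5p, the ratio was at least 7 with 3 reads as the floor. Every aid-sEV ratio was above the 2 nid-sEV ratios that could be measured. The mean log2 ratio with 1 RPM added was 5.41 ± 2.87 in nid-sEVs and 5.80 ± 0.78 in aid-sEVs (SD, n = 3 each). The difference of 0.39 was within the spread (exact permutation test, two-sided, p = 0.9). The value of nid-sEV 3 (8.70) was set by the added 1. Without that library the difference was 2.04 (exact permutation test, two-sided, p = 0.2), and 2 against 3 libraries could not reach 0.05.

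The same comparison with miR-215-5p was added after the values were seen. miR-192-5p had 9.75 and 7.17 reads for each read of miR-215-5p in nid-sEV 1 and 2, and 123, 354.5 and 143 in aid-sEV 1, 2 and 3. For nid-sEV 3 the ratio was again at least 7 with 3 reads as the floor. The log2 ratio differed by 2.54 between the groups (exact permutation test, two-sided, p = 0.4) and by 4.42 without nid-sEV 3 (exact permutation test, two-sided, p = 0.2).

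As a share of the reads with the common seed, miR-215-5p made up 9.30% (95% Wilson interval 5.81 to 14.6%) in nid-sEV 1 and 12.2% (7.89 to 18.5%) in nid-sEV 2. It made up 0 of 21 reads in nid-sEV 3, where 3 reads would be 14.3% and the 95% Wilson interval reached 15.5%. In aid-sEV 1, 2 and 3 the share was 0.805% (0.527 to 1.23%), 0.281% (0.129 to 0.612%) and 0.693% (0.296 to 1.61%). The intervals of nid-sEV 1 and 2 lay above those of all aid-sEV libraries, and the depth of nid-sEV 3 could not place it on either side.

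**Figure D3:**
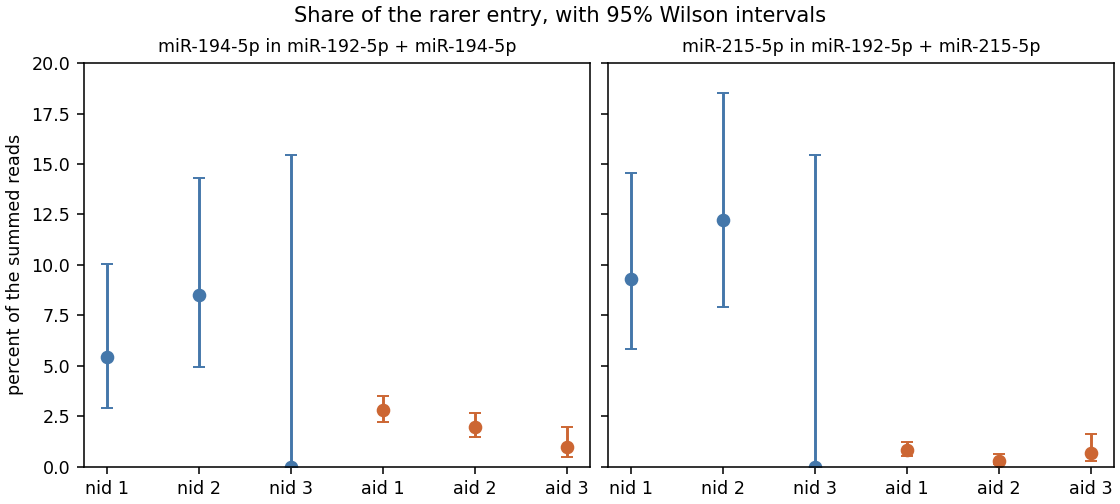
Percent of the summed reads taken by miR-194-5p beside miR-192-5p (left) and by miR-215-5p beside miR-192-5p (right), per library, with 95% Wilson intervals. The miR-215-5p share is 9.30 and 12.2% in nid-sEV 1 and 2 and at most 0.805% in aid-sEVs, and nid-sEV 3 has 0 of 21 reads on both sides.

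Unequal levels of cluster partners were common in the table. Over 16 pairs of neighbouring or related miRNAs the mean log2 ratio with 1 RPM added ran from 0.16 to 6.52 in size. The miR-192-5p to miR-194-5p pair (5.60) had the third largest, and miR-143-3p to miR-145a-5p was at 5.14. Neither the miR-192-5p to miR-194-5p pair nor the largest, miR-29a-3p to miR-29b-3p, was detected in all libraries. Their sizes, and so the place of the family's pair, depend in part on the added 1.

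The family's values were read against the whole table. The median log2 fold change was 1.11 over all 718 entries and -0.21 over the 219 detected in all libraries. miR-192-5p lay 2.70 above the second median and had the 13th highest log2 fold change of the 219. Of the 4 members 2 were called up, miR-192-5p and miR-194-2-3p, and 0 were called down by limma, against 1.81% of all entries. None of the 4 had every aid-sEV library below every nid-sEV library, against 7.52% of all entries. With a background of 15.6% and 4 entries, nothing about the family follows from that count.

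**Figure D4:**
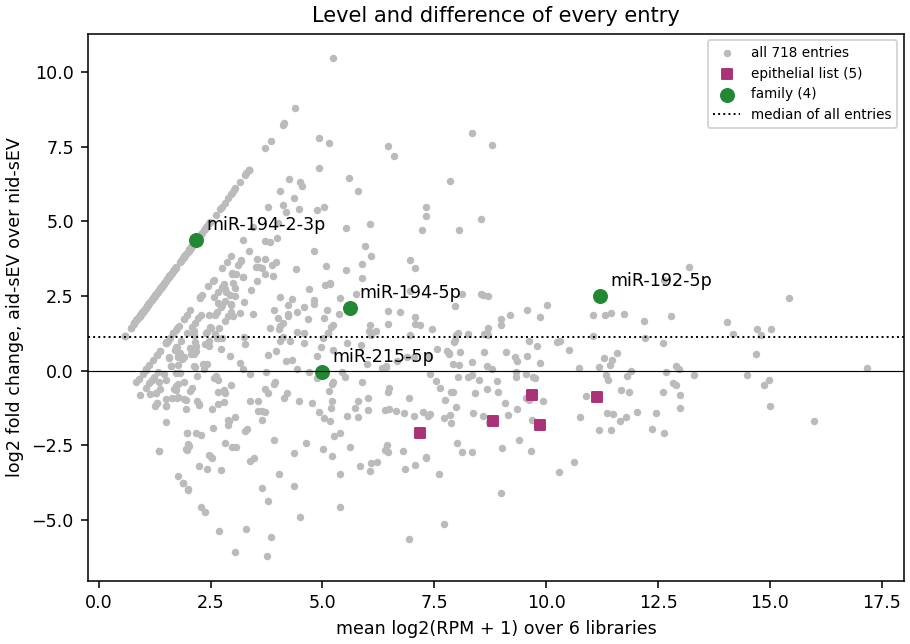
Log2 fold change (aid-sEV over nid-sEV) against mean log2(RPM + 1) over 6 libraries for all 718 entries in grey, the 4 family entries in green and 5 epithelial entries in purple. The dotted line is the median of all entries (1.11), miR-192-5p (2.49) lies among the abundant entries, and miR-194-2-3p lies on the diagonal of entries at 0 in every nid-sEV library.

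Because the family is typical of liver and epithelium, lists of miRNAs of those and other tissues were examined. The lists were drawn up with earlier results known. Of 5 epithelial entries of the miR-200 family, which holds cells in an epithelial state, 0 rose and 2 fell by limma, against 0 called by unfiltered edgeR and 3 called lower by DESeq2. Over all 718 entries, limma called 112 up and 13 lower, unfiltered edgeR 56 and 7, and DESeq2 65 and 50. At an unadjusted p under 0.05 were 200 of the 718 entries by limma, 187 by unfiltered edgeR and 165 by DESeq2. These backgrounds apply to the other lists as well. miR-200b-3p went from 809 ± 136 to 252 ± 43.8 RPM (log2 fold change -1.68, limma adjusted p = 0.046) and miR-200c-3p from 1762 ± 394 to 498 ± 83.0 RPM (-1.81, limma adjusted p = 0.030). The median of the list was -1.68, and its summed level was 5679 to 10233 RPM in nid-sEVs and 1962 to 4171 RPM in aid-sEVs.

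Of 3 listed liver entries, 1 fell. This was miR-122-5p, the dominant miRNA of hepatocytes, at 1618, 3000 and 396 RPM in nid-sEV 1, 2 and 3 and 38.5, 42.6 and 24.5 RPM in aid-sEV 1, 2 and 3 (log2 fold change -5.14, limma adjusted p = 0.016). The groups did not overlap. Over all entries, 7.52% had every aid-sEV library below every nid-sEV library. Between the groups miR-122-5p and miR-192-5p differed in opposite directions. Within nid-sEVs both had the same order, highest in nid-sEV 2 and lowest in nid-sEV 3. This order was not particular to them. From the epithelial list, miR-200a-3p and miR-141-3p had it too, while the rest of that list did not. The other liver entries were not called. miR-802-5p had a log2 fold change of -0.72 (limma adjusted p = 0.59) and overlapped between the groups. miR-802-3p went the other way, at 2.63 (limma adjusted p = 0.26), with means of 5.16 RPM in nid-sEVs and 18.3 RPM in aid-sEVs. The median of the liver list was -0.72. Its summed level was 515 to 3487 RPM in nid-sEVs, most of it miR-122-5p, and 136 to 319 RPM in aid-sEVs.

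Of 4 acinar entries, miRNAs of the digestive enzyme cells around the islets, 0 were called by limma, edgeR or DESeq2 (median -1.37, with 0 at an unadjusted limma p under 0.05), with sums of 2533 to 9059 RPM in nid-sEVs and 698 to 3416 RPM in aid-sEVs. Of 3 red cell entries (median -3.10), limma and unfiltered edgeR called 0, with 1 and 3 at an unadjusted p under 0.05, and DESeq2 called 3 lower in aid-sEVs. Of 5 mesenchymal entries (median -1.49), 0 were called by any of these tools, with 1 at an unadjusted limma p under 0.05. nid-sEV 2 was the nid-sEV library with most miR-192-5p, miR-215-5p, miR-194-5p and miR-122-5p. The part of these tissues in the family's levels was not tested.

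Of 4 islet endocrine entries 1 rose, miR-7b-5p, from 3751 ± 178 to 13462 ± 1558 RPM (log2 fold change 1.84, limma adjusted p = 0.010). Of all entries, 15.6% were called up by limma. The other endocrine entries were not called, with log2 fold changes of 0.079 for miR-375-3p, -0.14 for miR-7a-5p and -0.64 for miR-184-3p. The median of the list was -0.031. miR-375-3p, the leading miRNA of islet endocrine cells, was at 56584, 150356 and 346480 RPM in nid-sEV 1, 2 and 3 and at 136424 to 163590 RPM in aid-sEVs. Islet miRNA was thus present in all libraries. nid-sEV 3, in which miR-192-5p was lowest, was the library with most miR-375-3p. The part of this in the low miR-192-5p share of nid-sEV 3 was not tested, and the miR-192-5p difference without that library is given above.

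None of the 6 other entries examined here that p53 is known to raise was called up by any tool. Of 6 listed entries outside the family, limma and unfiltered edgeR called 0 in either direction, each with 1 at an unadjusted p under 0.05 (limma median -0.69), and DESeq2 called 1 lower, miR-34c-5p. Of the 6, 2 entries, miR-143-3p and miR-145a-5p, were also on the mesenchymal list. miR-34c-5p, a direct p53 target, had means of 388 ± 297 RPM in nid-sEVs and 58.2 ± 41.4 RPM in aid-sEVs (limma adjusted p = 0.21). miR-15a-5p, also among the 6, had means of 7.74 RPM in nid-sEVs and 3.51 RPM in aid-sEVs, below the 3-read floors. The other arm of its hairpin, miR-15a-3p, was not on the list. It was called up by limma (log2 fold change 5.91, adjusted p = 0.0088), as were 15.6% of all entries. The part of p53 in the family's levels was not tested.

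**Figure D5:**
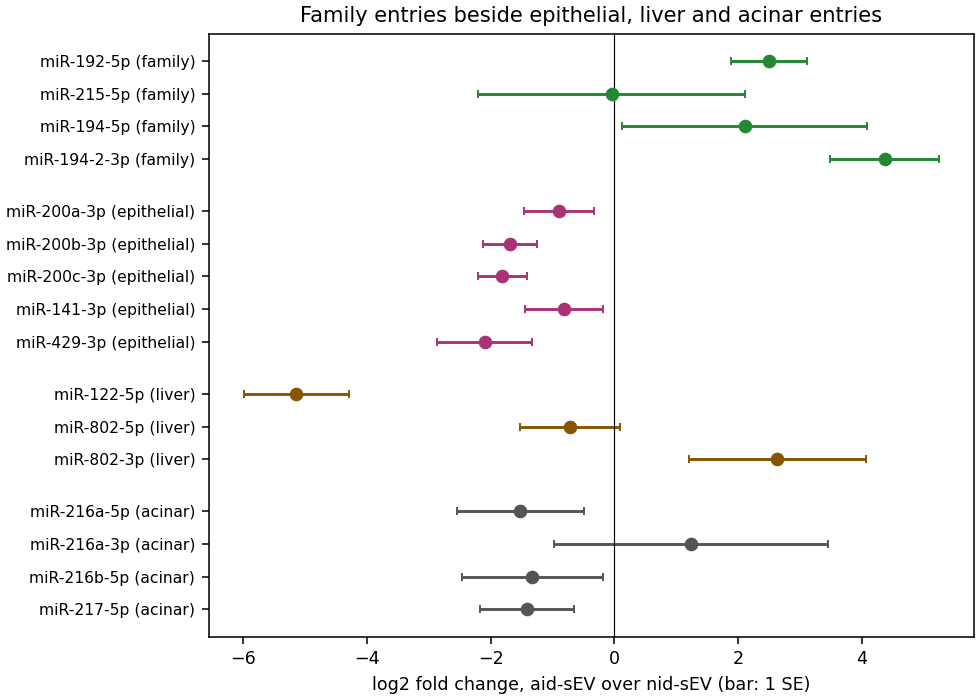
Log2 fold change (aid-sEV over nid-sEV, bars 1 SE) of the 4 family entries beside the epithelial, liver and acinar entries. miR-192-5p is at 2.49, while the 5 epithelial entries are all below 0. Of the liver entries, miR-122-5p is at -5.14, miR-802-5p at -0.72 and miR-802-3p at 2.63.

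The entries most like miR-192-5p over the libraries were found by Pearson correlation of log2(RPM + 1) among 218 other entries detected in all 6 libraries. They were miR-186-5p (r = 0.988), miR-370-3p (0.982) and miR-411-5p (0.965), and their log2 fold changes were 1.92, 2.50 and 2.57. For miR-194-5p, among 219 entries, they were miR-181b-5p (0.992), miR-181a-5p (0.981) and miR-26b-5p (0.957). The points are 6 libraries that share the group difference and the depth difference, so these values are descriptions.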

How the data were processed

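Small RNA libraries of islet sEVs were sequenced on an Illumina NovaSeq. The authors deposited 1 table with the RPM of 718 entries in 6 libraries. Per the submitters' processing notes, fastp 0.23.0, HISAT2 2.2.1 and GRCm38 were used, and the counting rule is not given in the sources used here. The table's columns of the authors' own comparison (log2 fold change, mean abundance, p-value, false discovery rate) were not used. Samples were grouped by their labels.

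Reads were recovered as RPM divided by the smallest value above 0 of the library, and 100% of values were whole within 0.01 reads. The main test was limma 3.58.1 (lmFit, eBayes with trend, R 4.3.3) on log2(RPM + 1) with Benjamini-Hochberg adjustment over all entries, with calls at a log2 fold change above 1 or below -1 and an adjusted p below 0.05. edgeR 4.0.16 and DESeq2 1.42.0 on recovered reads, other pseudocounts, scalings and filters, thinning, a replicate block and omission of each library were alternatives. The limma test was also run on simulated reads with the same spread setting for all entries, which these libraries need not share. Of 479 entries with a miRBase name, 424 matched RefSeq. Named entries were the family, the tissue lists, the 3 most similar entries and the neighbours in level. The members and lists were chosen with earlier results of these data known. Same-numbered libraries had correlations of deviations of -0.053, 0.058 and -0.051, so the numbers were not taken as pairs.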

Additional observations from a re-analysis of the deposited data

How the results depend on the processing

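miR-192-5p kept its direction under all 19 alternatives run, with log2 fold changes of 1.86 to 2.99, and its call under 11 of them. The call was lost on thinned reads (2.55, limma adjusted p = 0.060), with miR-215-5p reads added (2.39, 0.054, chosen after seeing the data) and without any one library other than nid-sEV 3. With a library left out the log2 fold change ran from 1.86, where the call was kept, to 2.98. Filtered edgeR (2.24, adjusted p = 0.016) and DESeq2 (2.42, adjusted p = 0.00029) kept it. miR-194-2-3p kept its direction and lost its call with a pseudocount of 10 (1.63), on thinned reads (1.46), with unfiltered edgeR (5.29) and without nid-sEV 2 or 3 (left-out range 3.86 to 4.93). DESeq2 gave it no adjusted p. miR-215-5p changed sign with a pseudocount of 0.1 (1.02), TMM factors (0.45), centring (0.13) and thinning (0.75), and ranged from -2.56 to 1.5 with a library left out. It was -1.36 with unfiltered edgeR and -1.81 with DESeq2. miR-194-2-3p and miR-215-5p did not pass the filter of filtered edgeR. miR-194-5p ranged from -0.17 to 3.59 with a library left out. The log2 ratio of miR-192-5p to miR-194-5p differed by -0.71 with a pseudocount of 0.1 and by -0.60 to 2.04 with a library left out. That of miR-192-5p to miR-215-5p kept its sign (1.47 to 4.46). Its exact permutation tests (two-sided) gave p from 0.1 to 0.8. With 3 libraries against 3 the smallest possible p is 0.1, so these tests could not reach 0.05 and decide nothing.

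With the replicate number as a block, which shares only a number, limma called 0 entries up and 0 down, with 187 at an unadjusted p under 0.05. miR-192-5p (2.49) and miR-194-2-3p (4.37) then both had an adjusted p of 0.107, and the difference in the miR-192-5p to miR-194-5p ratio was 0.39 (exact permutation p = 0.75). Against 112 entries up and 13 down, the counts were 110 and 8 with a pseudocount of 0.1, 62 and 9 with 10, 69 and 9 with a mean RPM of at least 10, 124 and 3 with TMM factors, 50 and 4 when thinned, 48 and 21 with filtered edgeR, 56 and 7 unfiltered, 65 and 50 with DESeq2, 23 and 15 over entries detected in all libraries, and 33 to 150 and 1 to 26 with a library left out. TMM factors moved the log2 median over all entries from 1.11 to 1.43 and centring to 1.28. Depth limits the 3 rarer entries, which held 0 to 18 reads in each nid-sEV library.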
